A study of Mus musculus with 17 samples.

Results

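Complement components and regulators were described in sorted cardiac fibroblasts (CFs) of infarcted mouse hearts as 9 genes of the 31053 in the count table. They were given as a list of symbols: the C1 protease genes *C1ra* and *C1s1*, the convertase genes *C4b*, *C2*, *C3* and *Cfb*, and the regulators *Serping1*, *Gm4788* and *Cd55*. Bulk RNA was counted in 17 libraries by MARS-seq, which reads the 3′ ends of poly-A transcripts, with 3 libraries each at 1, 2, 4 and 6 days post-infarction (dpi), 4 at 3 dpi and 1 at 5 dpi. All libraries came from 8 to 10 week old C57BL/6 mice of the Collagen1a1-GFP+ genotype, all infarcted, and uninjured hearts were not analysed here. The cells were sorted as positive for GFP, which is driven by the *Col1α1* promoter, and negative for the endothelial protein CD31 and the leukocyte protein CD45. The GFP gate itself holds whichever cells use that promoter. The study's methods also describe a bead selection before sorting that enriched CFs, for cells of 3 and 5 dpi. Whether it was used for every bulk library is not stated. For the 5 dpi library the replicate number differs between the labels (3 in the title, 1 in the description), and it is called replicate 3 here. The study's methods call its bulk samples biological replicates, the labels name no animals, and p-values measure the spread between libraries.

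Complement is a cascade of plasma proteins, most of them proteases or their substrates, that marks and clears microbes and damaged cells. In the classical pathway the proteases C1r and C1s, held on C1q, cleave C4 and C2 into a convertase that cleaves C3, and factor B forms the convertase of the alternative pathway. Fibroblasts as well as hepatocytes secrete many of these proteins, and host cells are kept from attack by soluble regulators such as the C1 inhibitor and by membrane regulators such as CD55. After infarction, complement is known to be deposited in the injured myocardium.

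The promoter windows of the 2 called genes for which one was at hand are shown, *C3* and *Gm4788*, because each of them passed the test in at least 1 comparison. Each window is from RefSeq on GRCm38.p6 and runs from 250 bases before to 50 bases after the annotated start, 5′ to 3′ on the gene's strand. A window was matched for 5 of the 9 genes. Capitals mark matches, on either strand, to the STAT motif TTCNNNGAA or the C/EBP motif TTGCNNAA. The *C3* window is chr17:57228087-57228386 on the minus strand and the *Gm4788* window is chr1:139781190-139781489 on the minus strand.
C3: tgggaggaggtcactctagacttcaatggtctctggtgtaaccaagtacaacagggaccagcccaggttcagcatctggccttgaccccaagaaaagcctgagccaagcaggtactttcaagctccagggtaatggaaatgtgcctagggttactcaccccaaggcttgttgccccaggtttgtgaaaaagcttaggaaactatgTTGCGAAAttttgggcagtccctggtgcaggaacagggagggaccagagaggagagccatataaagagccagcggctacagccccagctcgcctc
Gm4788: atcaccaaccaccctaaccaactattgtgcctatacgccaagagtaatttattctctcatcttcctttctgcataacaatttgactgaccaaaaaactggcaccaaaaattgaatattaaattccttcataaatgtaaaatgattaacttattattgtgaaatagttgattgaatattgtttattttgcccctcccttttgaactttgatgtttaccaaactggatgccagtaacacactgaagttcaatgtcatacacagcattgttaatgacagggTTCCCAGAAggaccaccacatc

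The *C3* window holds 1 C/EBP match, which begins at position -45 from the start, and the *Gm4788* window 1 STAT match, which begins 28 bases after the start. The C/EBP letters occur in 10.8% and the STAT letters in 8.3% of 32851 promoter windows of the same length. A motif of interferon regulatory factors, a pair of GAAA repeats, in 3.44% of windows, and the NF-kB consensus, in 4.51%, had no match in either window, and none of the matches overlapped. These matches describe letters only and no binding was measured.

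Library totals ranged from 8021815 to 22029938 counts, with a median of 14123952, and the 9 genes together took from 0.193% to 0.52% of a library's counts. Levels are given as CPM, the counts scaled to a common library size, after TMM normalization of the library sizes, or as log2 CPM with a prior count of 2. The summed level of 6 fibroblast markers lay between 10286 and 31904 CPM. *Ptprc*, which encodes CD45, was at 0 in 12 of 17 libraries, and *Pecam1*, which encodes CD31, had from 7 to 241 counts. Some libraries stood apart. Counts of pairs of libraries of a day were compared by chi-square per degree of freedom. Pairs with replicate 2 of 3 dpi had 161.28 to 212.55, and the other pairs of 3 dpi had 22.86 to 36.07. Pairs of the other days had 21.83 to 124.32. Replicate 2 of 6 dpi had a summed level of 591 CPM for 6 epicardial or mesothelial markers, against 23.3 to 265 CPM in the other 16 libraries, and the 3 C1q genes, which macrophages use, were summed at 96.3 and 80.1 CPM in replicates 3 and 4 of 3 dpi and at 33.5 CPM or less elsewhere. Y-linked counts exceeded *Xist* counts in 10 libraries, which were replicates 2 and 3 of 1 dpi and all of 2, 3 and 5 dpi. The reverse was found in the other 7, which were replicate 1 of 1 dpi and all of 4 and 6 dpi. The sex of the animals and the day therefore cannot be told apart where 3 or 5 dpi is set against 4 or 6 dpi. At 6 against 1 dpi they are mixed in part, since only replicate 1 of 1 dpi had more *Xist* counts. Replicates 1 and 2 of 1 dpi held both kinds, with 1670 and 461 *Xist* counts and 84 and 1455 Y-linked counts. The column labels of the 3 dpi libraries also differ in form from those of all other days, which carry the prefix GFP and a running S number. What this difference stands for is not stated, and it cannot be told apart from the day where 3 dpi is compared.

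Over the time course, 2 of the 8 tested genes changed with the day, *Gm4788* and *C2*. *Cfb* did not reach 10 counts in 3 libraries and was not tested. In the same edgeR quasi-likelihood F-test, 15.0% of the 14030 genes tested changed over the time course, and the share called among members, of 8 genes, is to be read against that share. Adjusted p was 7.5e-05 for *Gm4788* and 0.011 for *C2*, and between 0.063 and 0.83 for the other 6. Without replicate 1 of 6 dpi, or without replicate 2 of 3 dpi, *C3* and *C4b* were called as well, which made 4. In bulk samples, fewer cells of a type and less RNA per cell cannot be told apart, and this holds for every level below.

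**Figure D1:**
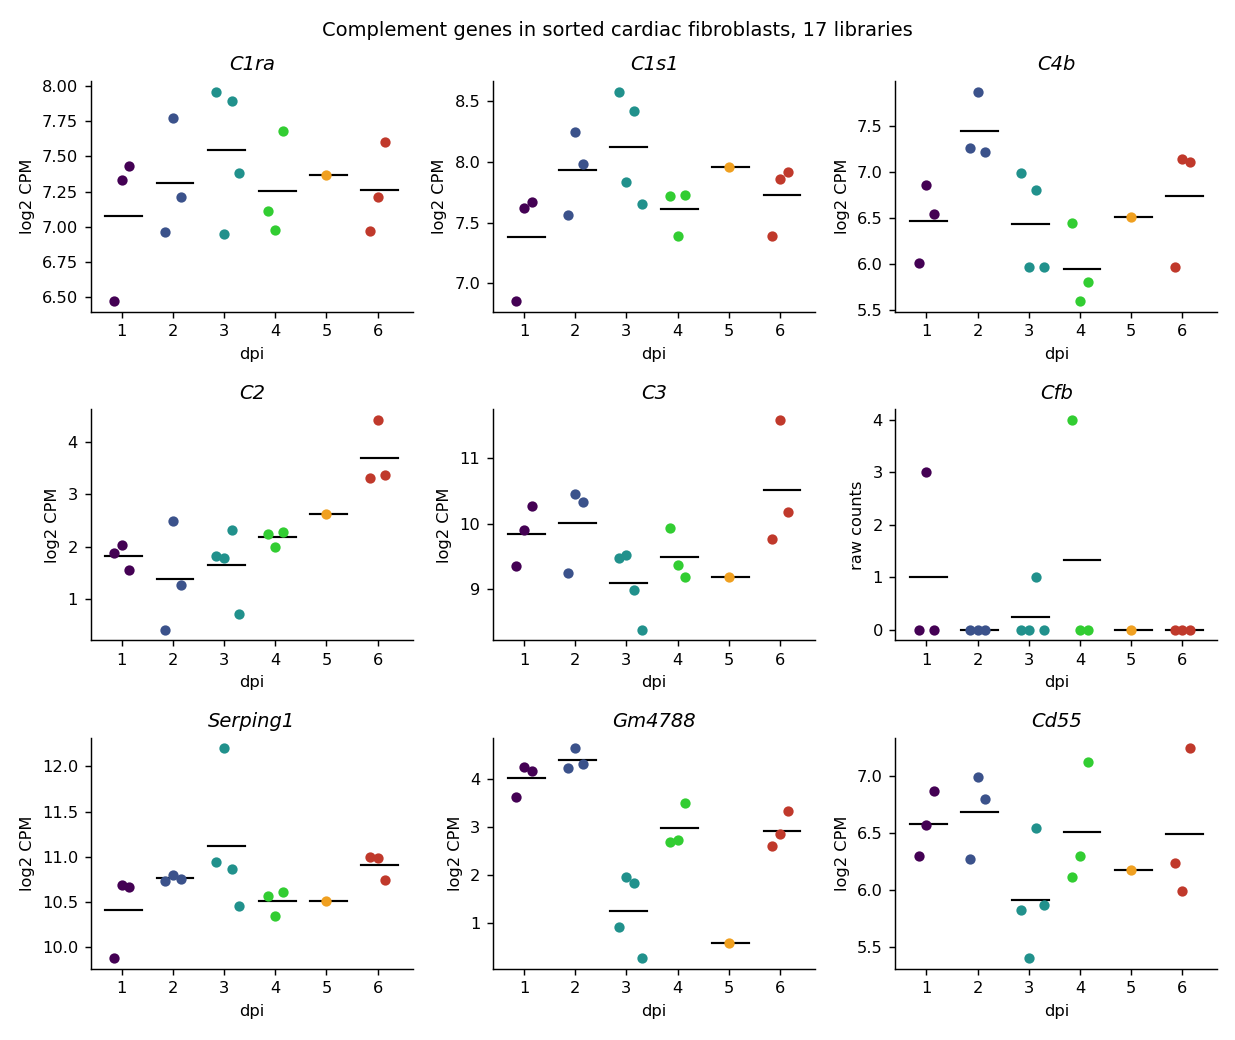
Levels of the 9 complement genes by day, with 1 point per library and a line at the mean of a day. The vertical axes give log2 CPM, except for *Cfb*, which is in raw counts and reached at most 4 in any library. *Gm4788* sat at 3.78 CPM or less in the 4 libraries of 3 dpi and in the 1 of 5 dpi, and at 12.3 CPM or more in all libraries of 1 and 2 dpi.

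Between neighbouring days, few members passed the test. From 1 to 2 dpi, 0 of 8 were called by edgeR and by DESeq2, with 1 at an unadjusted p under 0.05, while 0.178% of all genes tested were called. From 2 to 3 dpi, 1 of 8 fell and 0 rose, against 2.94% of all genes called. From 3 to 4 dpi, 1 rose, against 2.71%. From 4 to 6 dpi, 0 of 8 were called by edgeR, with 3 at an unadjusted p under 0.05 and 1 called by DESeq2, against 0.513% of all genes.

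Across longer spans, 1 of 8 rose at 6 against 1 dpi, where 12.1% of all genes were called. The mean of 3, 4 and 5 dpi was lower than the mean of 1 and 2 dpi for 1 of 8, where 7.48% of all genes were called. At 6 dpi, 3 of 8 were higher than over 3 to 5 dpi, where 11.5% of all genes were called. The median log2 fold change of the 8 genes was 0.42 in this last comparison and -0.13 in the window against the first 2 days, and that of all genes was -0.01 and 0.0. The last 2 comparisons share the libraries of 3 to 5 dpi.

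**Figure D2:**
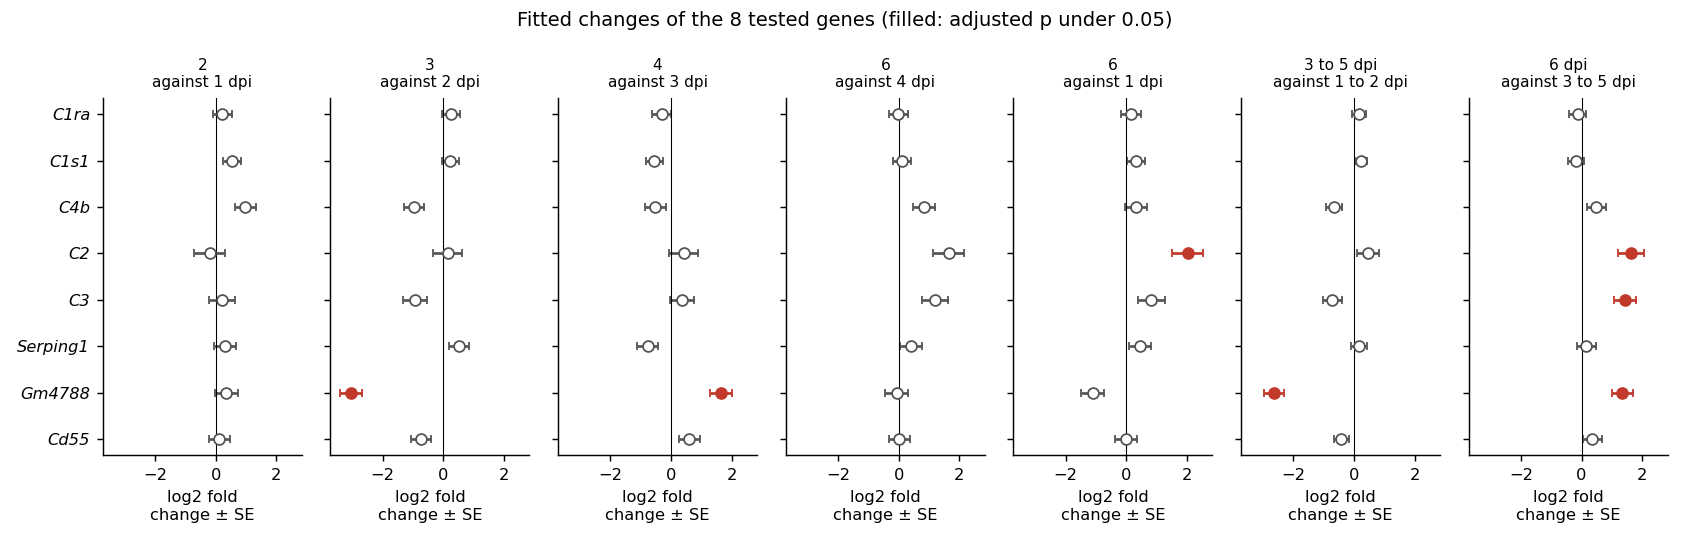
Fitted log2 fold change, first group minus second, of the 8 tested genes in 7 comparisons, with the standard error as a bar. Filled red points passed an adjusted p of 0.05, and *Gm4788* accounts for the 2 falls, at -3.05 from 2 to 3 dpi and -2.63 over 3 to 5 against 1 to 2 dpi.

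*Gm4788*, a factor H-related gene taken here among the regulators, lies on chr1:139697623-139781243 on the minus strand. Whether its product holds complement back was not tested. The gene showed the largest range of day means of the 8 tested genes, 3.82 on the log2 scale. At 1 dpi its levels were 12.3, 19.0 and 18.0 CPM, and at 2 dpi they were 18.7, 24.8 and 19.8 CPM. At 3 dpi they were 1.77, 3.78, 3.42 and 1.06 CPM, from 10 to 47 counts.

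All 4 libraries of 3 dpi thus lay below all 6 of the first 2 days. The fall from 2 to 3 dpi was 3.05 ± 0.37 on the log2 scale (log2 fold change -3.05, SE 0.37, 8.28-fold, adjusted p = 5.2e-04). At 4 dpi the levels were 6.3, 6.52 and 11.2 CPM, at 5 dpi 1.35 CPM in the single library, and at 6 dpi 5.94, 7.07 and 9.91 CPM.

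The libraries of 4 dpi lay above those of 3 dpi without overlap (log2 fold change 1.64, SE 0.37, adjusted p = 0.02) and those of 4 and 6 dpi overlapped (-0.06, SE 0.38, adjusted p = 0.95). The rise from 3 to 4 dpi missed the threshold without replicate 1 of 3 dpi (1.51, adjusted p = 0.069), without replicate 4 of 3 dpi (1.41, adjusted p = 0.054), without replicate 3 of 4 dpi (1.32, adjusted p = 0.086) and without replicates 3 and 4 of 3 dpi together (1.49, adjusted p = 0.079). It also missed it when only the 7 libraries of these days were fitted (1.65, adjusted p = 0.13).

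Over 3 to 5 dpi *Gm4788* was lower than over 1 to 2 dpi by 2.63 on the log2 scale (log2 fold change -2.63, SE 0.33, adjusted p = 2.7e-05), with 8 of 8 window libraries below all 6 early ones. The fall was called under each of the 27 alternatives tried, from -3.41 to -2.05. Among only the libraries in which Y-linked counts exceeded *Xist*, which leave 3 and 5 dpi in the window, it was -3.41 (SE 0.43, adjusted p = 7.7e-04). In the 7 libraries with more *Xist* counts, the single one of 1 dpi had 12.3 CPM, and those of 4 and 6 dpi had from 5.94 to 11.2 CPM.

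At 6 dpi *Gm4788* was higher than over 3 to 5 dpi (1.34, SE 0.35, adjusted p = 0.02), though the libraries overlapped. This difference missed the threshold without the 5 dpi library (0.76, adjusted p = 0.12), without the 3 dpi libraries (1.22, adjusted p = 0.052), without replicate 2 of 6 dpi (1.39, adjusted p = 0.069) and without replicate 3 of 6 dpi (1.11, adjusted p = 0.053). It was 1.34 with an adjusted p of 0.07 when the other days were left out of the fit. Against 1 dpi, all 3 libraries of 6 dpi were lower (-1.11, SE 0.38), with an adjusted p of 0.063 in edgeR and 0.041 in DESeq2.

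No 68-base window, the length of a read, in the last 500 bases of the *Gm4788* transcript occurred in a transcript of another gene.

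**Figure D3:**
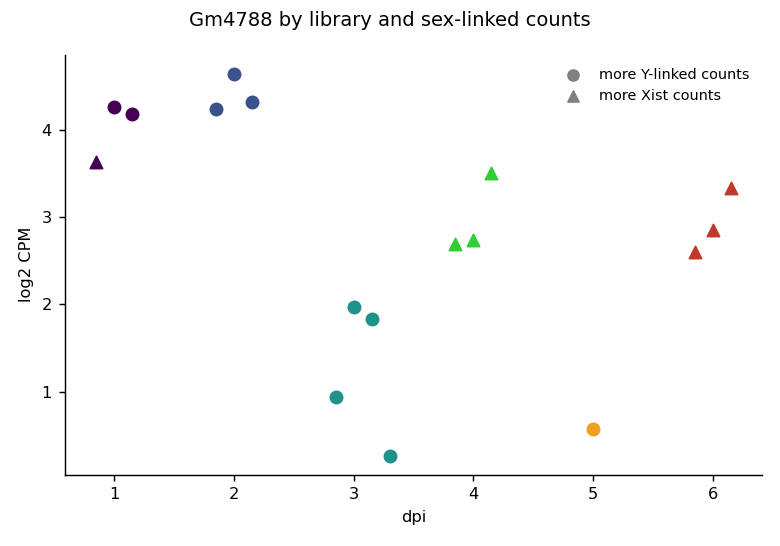
Log2 CPM of *Gm4788* in each of 17 libraries by day, with circles for libraries with more Y-linked counts and triangles for those with more *Xist* counts. *Gm4788* was lowest in the 3 and 5 dpi libraries, at 1.06 to 3.78 CPM, and higher in the *Xist*-rich libraries of 4 and 6 dpi, at 5.94 to 11.2 CPM.

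*C2*, the protease that binds C4b to form the classical C3 convertase, was highest at 6 dpi. It lies on chr17:34862604-34898265 on the minus strand, in the class III region of the major histocompatibility complex. Its levels were low before that day, with 3.55, 3.92 and 2.79 CPM at 1 dpi and 1.18, 5.47 and 2.25 CPM at 2 dpi. At 3 dpi they were 3.37, 3.3, 4.83 and 1.49 CPM.

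They were 4.61, 3.87 and 4.7 CPM at 4 dpi and 6.04 CPM at 5 dpi, and 9.82, 21.5 and 10.2 CPM at 6 dpi, from 133 to 252 counts. All 3 libraries of 6 dpi lay above the other 14, and replicate 2 was the highest of them. *C2* rose 4.04-fold at 6 against 1 dpi (log2 fold change 2.02, SE 0.52, adjusted p = 0.016) and 3.12-fold at 6 dpi against 3 to 5 dpi (1.64, SE 0.43, adjusted p = 0.019).

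Against 4 dpi, where all libraries on both sides had more *Xist* counts, the difference was 1.65 (SE 0.51) with an adjusted p of 0.1 in edgeR and 0.031 in DESeq2. The rise against 1 dpi missed the threshold without replicate 1 of 1 dpi (2.02, adjusted p = 0.055), without replicate 3 of 1 dpi (1.87, adjusted p = 0.063) and without replicate 2 of 6 dpi (1.55, adjusted p = 0.11). The rise against 3 to 5 dpi was 1.18 without that 6 dpi library (adjusted p = 0.2) and 1.43 without the 3 dpi libraries (adjusted p = 0.092). Without replicate 2 of 6 dpi *C2* was not called over the time course either.

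*C3*, the central component whose cleavage both pathways share, lies on chr17:57203970-57228136 on the minus strand. Its levels were 658, 962 and 1237 CPM at 1 dpi and 603, 1394 and 1290 CPM at 2 dpi. At 3 dpi they were 715, 734, 509 and 333 CPM, and at 4 dpi 977, 663 and 580 CPM. The 5 dpi library had 580 CPM, and those of 6 dpi had 866, 3056 and 1163 CPM.

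Replicate 2 of 6 dpi was the highest of all 17 libraries, and the other 2 of 6 dpi lay within the range of 1 and 2 dpi. *C3* rose 2.71-fold at 6 dpi against 3 to 5 dpi (log2 fold change 1.44, SE 0.37, adjusted p = 0.019). Without replicate 2 of 6 dpi this was 0.7 (SE 0.35, adjusted p = 0.3), and without the 3 dpi libraries it was 1.38 (adjusted p = 0.066). Against 1 dpi the difference was 0.83 (SE 0.44, adjusted p = 0.22). Against 4 dpi, with more *Xist* counts on both sides, it was 1.2 (SE 0.44, adjusted p = 0.15), and 0.46 (adjusted p = 0.69) without replicate 2 of 6 dpi.

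The lowest day mean of *C3* was at 3 dpi. The difference from 2 dpi was -0.94 (SE 0.4, adjusted p = 0.22), with replicates 3 and 4 of 3 dpi below all libraries of 2 dpi. Its p over the time course was 0.075 after adjustment, and *C3* was called over the time course by DESeq2.

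The library with the highest *C2* and *C3* levels was also the one with the highest summed level of the 6 epicardial or mesothelial markers, though only 3 of them, *Msln*, *Upk3b* and *Krt19*, were highest there. *Krt8* was at 44.4 CPM in it and at 79.2 CPM in replicate 2 of 1 dpi, *Upk1b* at 15.4 CPM and at 38.8 CPM at 5 dpi, and *Wt1* at 6.99 CPM and at 12.1 CPM in replicate 1 of 3 dpi. *Msln* and *Upk3b* made up 304 and 132 CPM of the sum in that library. In replicates 1, 2 and 3 of 6 dpi, *Msln* was at 34.3, 304 and 30.6 CPM and *Krt19* at 13.4, 87.4 and 12.9 CPM. Summed over the 6 markers, none of which was at 0 in any library, the level was 87.5, 591 and 84.0 CPM. In replicate 2 of 1 dpi the sum was 265 CPM and *C2* was at 3.92 CPM.

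Over the 17 libraries, r with the log2 of that sum was 0.59 for *C2* and 0.53 for *C3*, and 0.13 and 0.19 without the 2 libraries farthest from the median sum. For the deviations of 16 libraries from their day means r was 0.72 and 0.71. These points share library and depth, and the part of mesothelial cells in the *C2* and *C3* levels was not tested. Summed cardiomyocyte markers were also highest at 6 dpi, at 80.0, 192 and 150 CPM, against 5.5 to 66.4 CPM elsewhere. Summed mural cell markers were at 93.4, 96.6 and 85.2 CPM at 6 dpi, above the 20.8 to 54.0 CPM of 1 dpi. The mural sum reached 109 CPM at 4 dpi and 161 CPM at 5 dpi. Among its genes only *Rgs5* and *Cspg4* were higher at 6 than at 1 dpi without overlap, while *Kcnj8*, *Abcc9* and *Myh11* overlapped. *Kcnj8* was at 4.71, 5.62 and 3.23 CPM at 6 dpi and at 1.52, 6.18 and 8.51 CPM at 1 dpi. The part of either cell type in the *C2* and *C3* levels was not tested.

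**Figure D4:**
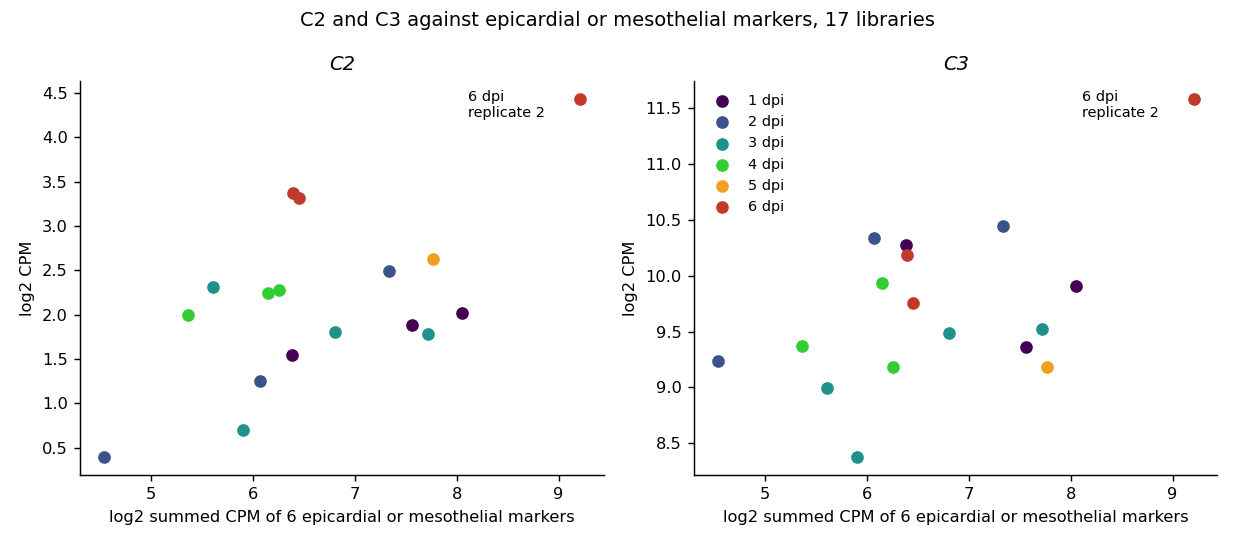
Log2 CPM of *C2* and *C3* against the log2 summed CPM of 6 epicardial or mesothelial markers in 17 libraries, colored by day. Replicate 2 of 6 dpi, at 591 CPM of markers, is at the far right and top in both panels. Replicates 1 and 3 of 6 dpi, at 87.5 and 84.0 CPM of markers, have *C2* at 9.82 and 10.2 CPM.

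*C4b*, whose product is the C4 component that joins C2 in the classical convertase, had its highest day mean at 2 dpi and its lowest at 4 dpi. It lies on chr17:34728380-34743882 on the minus strand, 112.5 kb from *Cfb* in the same gene cluster. Its levels were 64.2, 116 and 93.1 CPM at 1 dpi and 153, 236 and 149 CPM at 2 dpi. At 3 dpi they were 127, 62.6, 112 and 62.3 CPM, and at 4 dpi 87.3, 48.0 and 55.4 CPM.

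All libraries of 2 dpi lay above all those of 1, 3 and 4 dpi, but no comparison passed the threshold. The log2 fold change was 0.98 at 2 against 1 dpi (SE 0.36, adjusted p = 0.49) and -0.98 at 3 against 2 dpi (SE 0.33, adjusted p = 0.11). At 6 dpi the levels were 62.5, 141 and 138 CPM, and at 5 dpi 91.1 CPM. The adjusted p over the time course was 0.063, and *C4b* was called over the time course by DESeq2.

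The copy *C4a* was not analysed here. In the last 500 bases of the longest *C4b* transcript, 29.3% of the 68-base windows, or 16.5% over all its transcripts, also occurred in *C4a* transcripts, so the *C4b* counts are uncertain to that extent.

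*Cfb*, which encodes the factor B protease of the alternative convertase, had 8 counts in all, with 3, 1 and 4 counts in 3 libraries and 0 in 14. A count of 0 allows up to 3 counts, which is between 0.136 and 0.374 CPM by library and covers counting error only. The gene lies on chr17:34856374-34862518 on the minus strand, and 79.5% of its exon bases also belong to *Gm20547*, an annotated gene on the same strand that spans *Cfb* and a stretch of *C2*.

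At the 3′ end, 91.2% of the 68-base windows of the longest *Cfb* transcript, or 66.1% over all its transcripts, also occurred in *Gm20547*, which had 0 counts in every library. By default featureCounts leaves out reads that fall on exons of more than 1 gene, and whether this was changed is not given in the sources used here. The *Cfb* level is therefore uncertain. *Gm20547* also covers 42.8% of the *C2* exon bases, and 24.0% of the 3′ windows over all annotated *C2* transcripts, though 0.0% in the longest one, so that the *C2* counts are uncertain where a shorter transcript is used.

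*C1ra* and *C1s1*, the genes of the C1r and C1s proteases, lie 6.9 kb apart on chromosome 6, at chr6:124512405-124523443 on the plus strand and chr6:124530345-124542359 on the minus strand. *C1ra* ranged from 88.4 to 248 CPM and *C1s1* from 116 to 384 CPM over the 17 libraries. In both, replicate 1 of 1 dpi was the lowest library and replicate 1 of 3 dpi the highest. Neither was called in any comparison, with an adjusted p over the time course of 0.83 and 0.33.

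The day means of *C1ra* lay between 7.08 and 7.54 log2 CPM, with SDs of 0.32 to 0.53 within a day. Those of *C1s1* lay between 7.38 and 8.12, with SDs of 0.19 to 0.46. The largest difference between neighbouring days for *C1s1* was -0.55 at 4 against 3 dpi (SE 0.28, adjusted p = 0.31). The highest day mean was at 3 dpi for both, and 1 and 2, 2 and 3, 3 and 4, and 4 and 6 dpi overlapped in both genes. The single 5 dpi library, at 249 CPM of *C1s1*, lay above all libraries of 4 and 6 dpi.

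The levels of both genes followed each other from library to library, with r of 0.86 over the 17 libraries. It was 0.73 without the 2 libraries farthest from the *C1s1* median and 0.88 for the deviations of 16 libraries from their day means. *C1ra* was likewise close to its copy *C1rb* (r = 0.92) and *C1s1* to its copy *C1s2* (r = 0.92). Without the 2 libraries farthest from the median of the copy, r was 0.93 and 0.82. These points share library and depth. Reads of the copies are in part alike, with 15.7% of the windows in the last 500 bases of *C1ra* found in *C1rb* and 10.4% of those of the longest *C1s1* transcript, or 18.4% over all its transcripts, found in *C1s2*. In addition, 18.4% of the *C1s1* exon bases overlap *Gm16567* on the opposite strand, and the strand setting of the counting is not given in the sources used here.

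*Serping1*, the gene of the C1 inhibitor that inactivates C1r and C1s, lies on chr2:84765387-84775444 on the minus strand. It ranged from 939 CPM, in replicate 1 of 1 dpi, to 4714 CPM and was called in no comparison (adjusted p over the time course 0.33). At 2 dpi it was at 1698, 1769 and 1716 CPM, with an SD of 0.03 on the log2 scale, and at 3 dpi at 1967, 4714, 1857 and 1399 CPM, with an SD of 0.76.

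Replicate 2 of 3 dpi was thus alone at its level, and it also had the lowest C1q sum of that day, 0.483 CPM. Its summed fibroblast markers were the highest of all libraries, 31904 CPM, as were its *Col1a1*, 16777 CPM, and *Col1a2*, 9543 CPM. The other markers of that sum went the other way. *Dcn*, at 5002 CPM, and *Lum*, at 97.1 CPM, were the lowest of all libraries, and *Pdgfra* and *Tcf21* the lowest of that day. At 6 dpi the levels were 2048, 2015 and 1715 CPM, all above the 4 dpi levels of 1509, 1300 and 1564 CPM (log2 fold change 0.4, SE 0.36, adjusted p = 0.55). Across the 17 libraries r of *Serping1* with *C1ra* was 0.13 and with *C1s1* 0.41, and for deviations from day means -0.09 and 0.15. Without the 2 libraries farthest from the median of *C1ra* or of *C1s1*, r was -0.26 and 0.15. Replicate 2 of 3 dpi, highest in *Serping1*, had 123 CPM of *C1ra*, and r without that library alone was not computed.

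**Figure D5:**
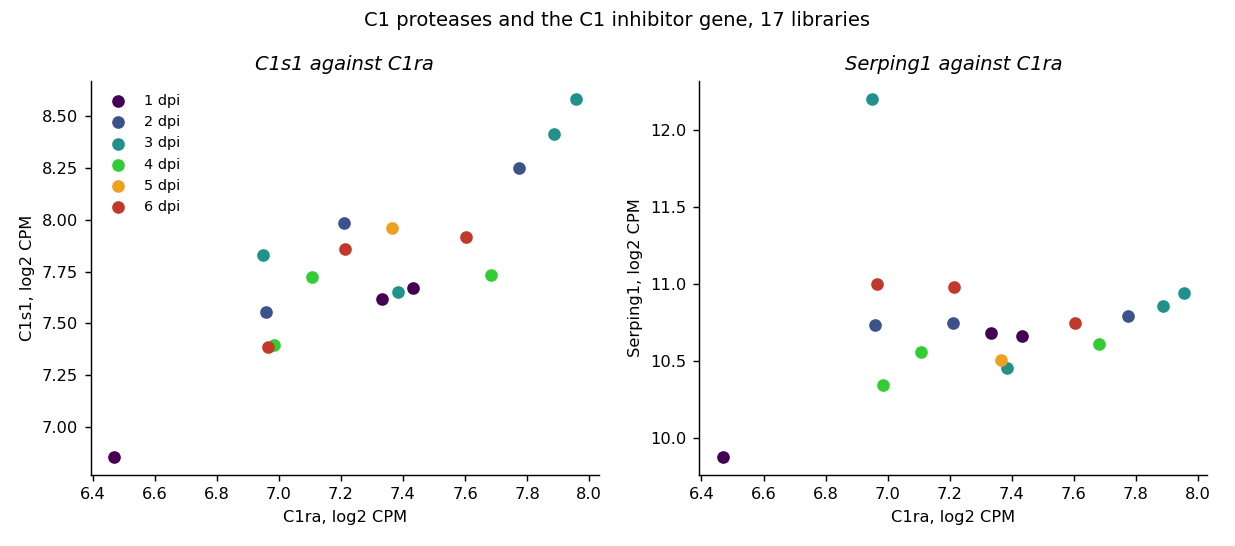
Log2 CPM of *C1s1* and of *Serping1* against *C1ra* in 17 libraries, colored by day. *C1s1* follows *C1ra* (r = 0.86), and replicate 1 of 1 dpi is lowest in each of the genes shown. For *Serping1* with *C1ra*, r is 0.13, with 1 library of 3 dpi at 4714 CPM, and r without that library was not computed.

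*Cd55*, the gene of the membrane protein that speeds the decay of the C3 convertases, lies on chr1:130439027-130462744 on the minus strand. It ranged from 42.0 to 151 CPM and was called in no comparison (adjusted p over the time course 0.43). Its levels were 78.6, 95.0 and 117 CPM at 1 dpi, 77.2, 127 and 112 CPM at 2 dpi and 56.3, 42.0, 92.7 and 58.5 CPM at 3 dpi. The lowest day mean was at 3 dpi, where 3 of 4 libraries lay below all libraries of 2 dpi (log2 fold change -0.75, SE 0.33, adjusted p = 0.22).

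At 4 dpi *Cd55* was at 68.9, 78.5 and 139 CPM, at 5 dpi at 72.0 CPM and at 6 dpi at 75.2, 63.5 and 151 CPM, so that replicate 3 stood above the others at both 4 and 6 dpi. The fold change at 6 against 1 dpi was -0.01 (SE 0.35, adjusted p = 0.99). Over all *Cd55* transcripts, 9.8% of the 3′ windows also occurred in its copy *Cd55b*, and 0.0% in the longest one.

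Of the other complement genes, 50 of 52 listed were in the table, 31 were tested and 9 were called over the time course, beside 15.0% of all genes tested. By direction, 3 rose and 4 fell at 6 against 1 dpi, beside 12.1% of all genes called. Over 3 to 5 against 1 to 2 dpi 4 rose and 1 fell, beside 7.48%, and at 6 dpi against 3 to 5 dpi 1 rose and 3 fell, beside 11.5%. Between neighbouring days 3 rose from 2 to 3 dpi (2.94% of all genes called), 1 fell from 3 to 4 dpi (2.71%) and 1 rose from 4 to 6 dpi (0.513%). Among the initiators, which recognise targets, 10 were tested and 3 were called, the C1q genes. *C1qb*, a chain of C1q, had a mean of 22.7 CPM at 3 dpi with a range from 0.242 to 44.2 CPM, and rose over 3 to 5 against 1 to 2 dpi (3.31, SE 0.7, adjusted p = 0.0046). The summed macrophage or monocyte markers were 53.0, 62.2, 167 and 194 CPM in the 4 libraries of 3 dpi and 58.7 CPM at 5 dpi. Elsewhere the sum was 12.6 to 40.0 CPM. In replicate 2 of 3 dpi, at 62.2 CPM, *Csf1r* made up 32.6 CPM and *Cd14* 15.9 CPM. *Lyz2* was at 4.11 CPM in that library, and *Ptprc*, *Adgre1*, *Fcgr1* and *Mrc1* were at 0. The part of macrophages or monocytes in the C1q levels was not tested. Of the genes for factor D and properdin 1 was tested and not called, and of the genes for the terminal pathway 2 were tested and 1 called, *C7*.

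Among soluble regulators 7 were tested. *Clu* encodes clusterin, a secreted chaperone that holds back the terminal complex. Its day means were 68.2, 48.5, 118 and 104 CPM at 1 to 4 dpi and 487 CPM at 6 dpi, with 222 CPM in the 5 dpi library. It was called over the time course (adjusted p = 5.1e-04) and rose at 6 against 1 dpi (2.84, SE 0.51, adjusted p = 0.0014) and over 3 to 5 against 1 to 2 dpi (1.28, SE 0.34, adjusted p = 0.025). Its r with the mesothelial sum was 0.6, 0.16 without the 2 libraries farthest from the median, and 0.76 for the deviations of 16 libraries from their day means. The part of mesothelial or mural cells in the *Clu* level was not tested.

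Of 6 membrane regulators tested, 1 was called over the time course. This was *Cd59a*, whose product blocks the terminal pore, at a mean of 4.94 CPM at 1 dpi and 18.8 CPM at 6 dpi (log2 fold change 1.91, SE 0.4, adjusted p = 0.0044). The summed mural and cardiomyocyte markers, given above, were also higher at 6 than at 1 dpi without overlap. Among the mural markers, however, only *Rgs5* and *Cspg4* were higher without overlap. The part of either cell type in the rise of *Cd59a* was not tested. Of 5 receptors tested, 2 were called, the integrin gene *Itgb2* and *C1qbp*, which encodes a mitochondrial protein that can bind the heads of C1q. *C1qbp* rose from 2 to 3 dpi (0.92, SE 0.23, adjusted p = 0.035), fell from 3 to 4 dpi (-1.2, SE 0.23, adjusted p = 0.0089) and was lower at 6 than at 1 dpi (-1.5, SE 0.25, adjusted p = 6.2e-04).

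The genes whose pattern over the 17 libraries was most like that of a member were sought among 8919 genes with a mean of at least 100 counts, for the 3 members with the highest mean log2 CPM. For *Serping1* they were *Tapbp* (r = 0.87), *Srpx2* (r = 0.87) and *Tubg1* (r = 0.86). For *C3* they were *Gstk1* (r = 0.95), *Arhgef10* (r = 0.88) and *Ciz1* (r = 0.86). For *C1s1* they were *C1s2* (r = 0.92), *C1ra* (r = 0.86) and *Rbm33* (r = 0.8). The points share library, depth and day.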

How the data were processed

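Reads had been demultiplexed by the authors with bcl2fastq (1.2.4), mapped with STAR to mm10 and assigned to Ensembl GRCm38.91 genes by featureCounts. The deposited values are raw counts per gene, 1 column for each library. Symbols were joined to the Ensembl identifiers. A gene was tested if 3 or more libraries had 10 or more counts. The test was the quasi-likelihood F-test of edgeR (4.0.16, R 4.3.3) on TMM-normalized library sizes. The day was a factor, all 17 libraries were fitted, and p-values were adjusted over all 14030 genes (Benjamini-Hochberg, threshold 0.05). The standard error is the size of the log2 fold change divided by the square root of F, and a mean over days weights each day equally. The members and lists were chosen with earlier results of these data known. Members are described in every comparison. Other complement genes are given by role, with values for at most the 3 with the largest range of day means that were called over the time course and had a mean of at least 100 counts. Libraries of a day differed by more than counting error in each of 18 pairs. Positions and transcripts come from GENCODE vM21 (GRCm38), not the release counted on. Alternatives were other normalizations, DESeq2 (1.42.0), other count minimums, a replicate block, fewer days or libraries and, after the data were seen, the fit without replicates 3 and 4 of 3 dpi. Results for 1 of the listed complement genes are not reported here. Figures were drawn with matplotlib (3.10.9).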

Additional observations from a re-analysis of the deposited data

How the results depend on the processing

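None of the fitted changes of members called under any setting turned its sign. Of 193 counts of members under alternatives, 166 stayed within 1.5 times the main count. With DESeq2 in place of edgeR, 4 members were called over the time course, 1 at 6 against 4 dpi and 2 at 6 against 1 dpi. With all genes of at least 1 count, these counts were 4, 2 and 2, with 2 at 3 against 2 dpi and 3 over 3 to 5 against 1 to 2 dpi. When the fit was restricted to the days compared, counts were 0 at 4 against 3 dpi and 2 at 6 against 1 dpi. Without the 3 dpi libraries 0 were called at 6 against 3 to 5 dpi, and without replicates 3 and 4 of 3 dpi, chosen after the data were seen, 0 at 4 against 3 dpi. Leaving out 1 library in turn gave from 1 to 4 over the time course, 0 to 1 at 4 against 3 dpi, 0 to 1 at 6 against 4 dpi, 0 to 2 at 6 against 1 dpi and 0 to 3 at 6 dpi against 3 to 5 dpi. The causes were not tested, beside fewer libraries or more genes in a fit. Libraries with the same replicate number did not deviate together (mean r = 0.011 over 30 pairs, against -0.005 over 72 other pairs), and with the replicate block 2 members were called at 6 against 1 dpi in place of 1, as *Gm4788* had an adjusted p of 0.031. The block changed no other count of members. Of the days of the highest and lowest mean, 47 of 48 were kept under other scales, and without the 5 dpi library *Gm4788* was lowest at 3 dpi. Differences of *C2* and *Gm4788* rest on as few as 14 and 10 counts in a library, and days had at most 4 libraries.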

Other observations

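At 3 dpi, the only day with 4 libraries, none of the 8 tested genes had a library past the 95% limit of Dixon's test, and the highest ratio was 0.719, for *Serping1* in replicate 2. Such a test flags about 1 in 20 groups by chance.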
